A study of Homo sapiens with 8 samples.

Results

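These results concern 8 genes that androgen withdrawal normally raises in prostate cells: DDC, CAMK2N1, OPRK1, ACKR3, BCHE, FOLH1, CDK8 and PRKD1. They were chosen by gene symbol, and all 8 were found among the 16126 genes listed in at least 1 of 3 deposited tables. DDC, CAMK2N1, BCHE, FOLH1, CDK8 and PRKD1 stood in every table, whereas OPRK1 and ACKR3 stood in the C4-2B and VCaP tables only. The study sequenced polyadenylated RNA, in 8 libraries, from 3 prostate cancer lines that each had an enzalutamide-sensitive and a resistant form (ENZR). Enzalutamide keeps androgen from signalling through its receptor. There were 2 libraries of C4-2B, a line descended from LNCaP that grows after castration, and 2 of C4-2BENZR, and both forms carry transgenes for luciferase and GFP. CWR-R1 and CWR-R1ENZR, from a relapsed prostate xenograft, and VCaP and VCaPENZR, from a vertebral metastasis, gave 1 library each, with no transgene named. The labels do not say how resistance was raised, or whether drug or hormone was in the medium when RNA was taken. Androgen withdrawal itself was not an arm of the study, so the name of the gene group is background and could not be checked here.

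Androgen acts through a nuclear receptor that switches some genes on and holds others down. When the hormone is removed or the drug is added, the first kind falls and the second kind rises, and the 8 genes described here belong to the second kind. They have unrelated products. DDC makes dopamine and serotonin from their precursors, BCHE breaks down choline esters, and FOLH1 is prostate-specific membrane antigen, a cell-surface peptidase used as a target for imaging and therapy. OPRK1 is the kappa opioid receptor and ACKR3 a chemokine receptor that scavenges CXCL12. CAMK2N1 inhibits the calcium/calmodulin-dependent kinase CaMKII, CDK8 is a kinase of the Mediator complex, and PRKD1 is protein kinase D1.

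Each level is the deposited value, reads divided by a scaled library size. The listed genes held 14503586 to 20248655 reads per library, and a count of 3 reads, used as a floor, is a level of 0.142 to 0.202. Epithelial and prostate markers were present in every library, with 5 or 6 of 6 luminal markers at a level of at least 1. The library labelled VCaPENZR stood apart from its line. ERG, which the TMPRSS2-ERG fusion drives in VCaP, was at 428 in VCaP and at 0.179 (3 reads) in the library labelled VCaPENZR. Over the 12868 genes in all 3 tables, log2 values of that library correlated at 0.940 with CWR-R1ENZR and at 0.728 with VCaP (a description over genes, which are not independent). Its values below are therefore named as those of the library labelled VCaPENZR, and results across lines are given with and without the VCaP table.

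DDC had the widest range of the 6 genes in every table, and its start regions are shown beside that of CDK8, which had the narrowest. The 250 bases before each start site are from RefSeq (GRCh38.p14, read 5′ to 3′ along the gene), with CpG pairs in capitals. The 2 DDC starts lie at chr7:50565406-50565655 and, further into the gene, at chr7:50561072-50561321, both on the minus strand. That of CDK8 lies at chr13:26253879-26254128 on the plus strand.
DDC, upstream start: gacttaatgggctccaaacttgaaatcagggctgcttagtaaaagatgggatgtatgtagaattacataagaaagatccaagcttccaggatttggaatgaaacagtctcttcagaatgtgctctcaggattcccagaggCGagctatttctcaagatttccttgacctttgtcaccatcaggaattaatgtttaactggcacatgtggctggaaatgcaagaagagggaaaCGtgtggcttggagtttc
DDC, downstream start: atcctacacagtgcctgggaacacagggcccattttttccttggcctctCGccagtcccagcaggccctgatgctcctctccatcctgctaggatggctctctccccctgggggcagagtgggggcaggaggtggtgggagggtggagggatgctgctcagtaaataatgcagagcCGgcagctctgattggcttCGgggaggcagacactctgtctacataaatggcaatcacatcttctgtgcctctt
CDK8: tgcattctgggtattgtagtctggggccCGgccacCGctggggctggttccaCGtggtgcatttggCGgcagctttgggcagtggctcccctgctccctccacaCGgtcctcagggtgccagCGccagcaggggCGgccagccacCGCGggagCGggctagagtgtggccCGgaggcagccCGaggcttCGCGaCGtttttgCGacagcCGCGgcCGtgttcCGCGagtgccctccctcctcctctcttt
The DDC windows held 2 and 3 CpG pairs and the CDK8 window 21, against a median of 11 over all 35116 start windows of the same length. BCHE, which also varied widely, had 2 CpG pairs in its window, but the 2 windows of PRKD1, which varied as widely, had 32 and 36. The half-site of the androgen response element, AGAACA on either strand, was in none of the 6 windows of DDC, BCHE, CDK8 and PRKD1, and in 12.4% of all windows. These counts describe the letters in these windows only.

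**Figure D1:**
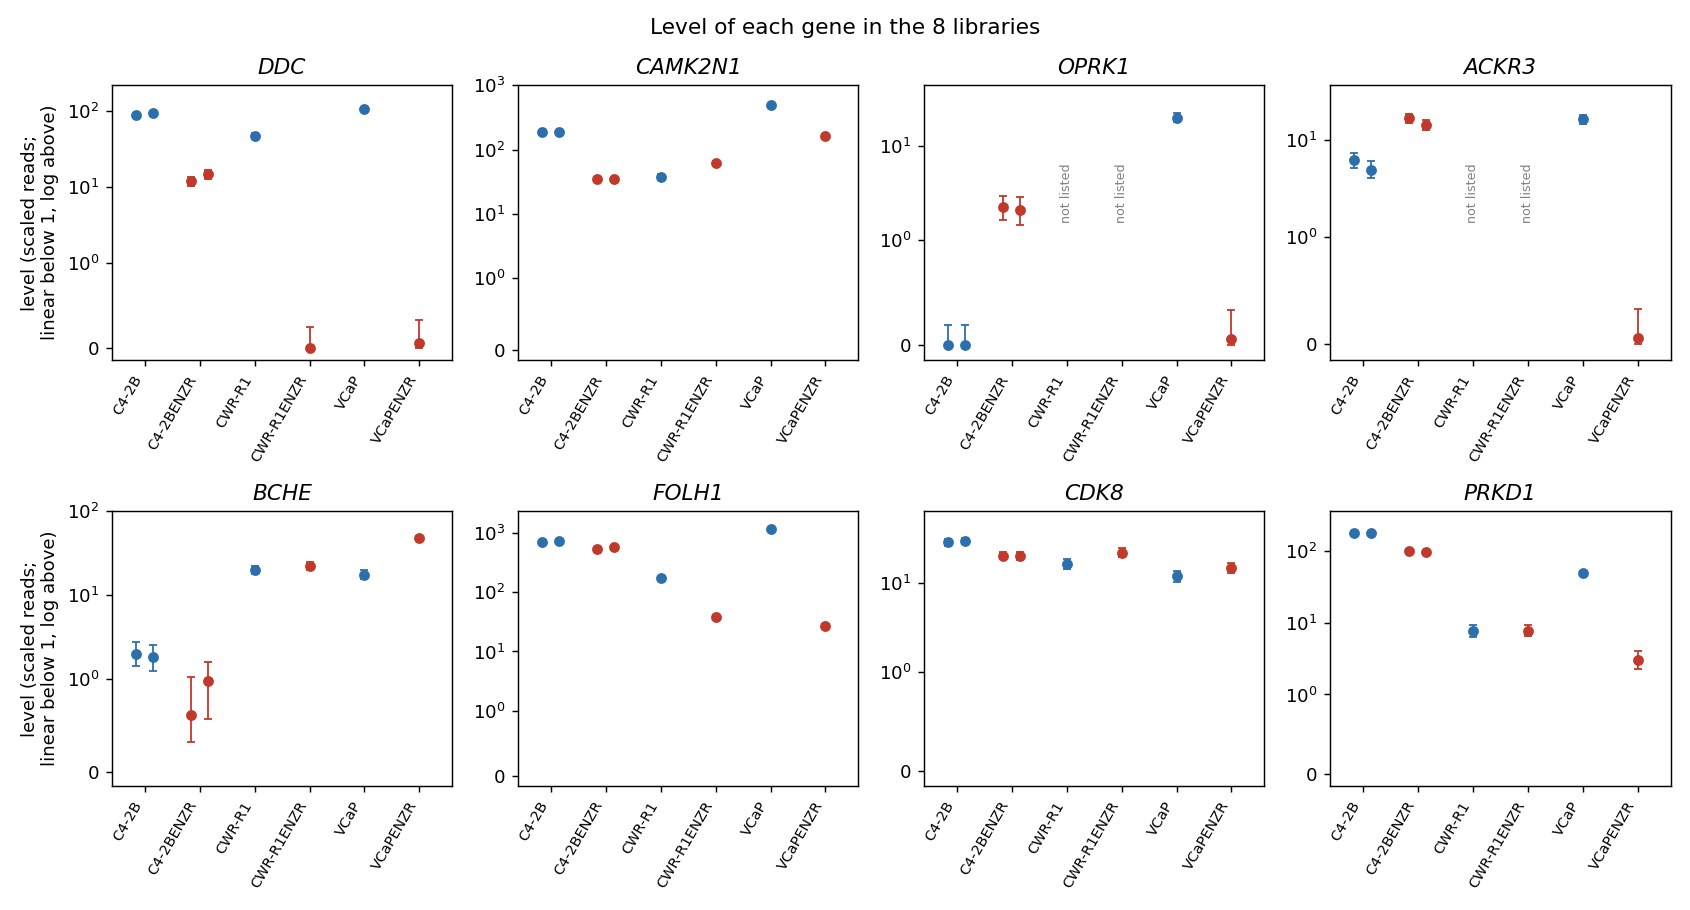
Level of each of the 8 genes in every library (scaled reads, linear below 1 and logarithmic above), sensitive libraries in blue and resistant in red. Bars are exact 95% Poisson intervals for counting error, each point is 1 library, and DDC falls to 0 or 1 read in CWR-R1ENZR and the library labelled VCaPENZR while CDK8 stays between 11.8 and 29.3.

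In C4-2BENZR against C4-2B, 6 of the 8 genes fell and 2 rose. DDC and CAMK2N1 fell most, PRKD1, CDK8, FOLH1 and BCHE fell by less, and the receptor genes OPRK1 and ACKR3 rose. Of all 13280 genes tested, 56.8% were called, 27.8% as higher and 29.0% as lower (limma with Benjamini-Hochberg adjustment, adjusted p below 0.05), so most genes were called and 8 of 8 is read against that share. The replicate groups did not overlap for any of the 8 genes, as for 77.4% of all genes. Changes of at least 2-fold on the log2(level + 1) scale were called for 4 of the 8 genes, DDC, CAMK2N1, OPRK1 and ACKR3, against 9.92% of all genes, and the 2 lower among them against 3.77%. The median log2 difference of the 8 was −0.60, against −0.00075 over all genes. OPRK1 and BCHE each passed the low-value filter through 1 group only, so these counts are a description and not support for a direction. When libraries were scaled by total counts alone, calls over all genes split 4748 higher and 2924 lower in place of 3691 and 3856, and the 8 genes kept their calls and directions. All 4 libraries come from 1 sensitive and 1 resistant line, so the p-values measure no more than the spread between repeat libraries.

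DDC, aromatic L-amino acid decarboxylase, was at 90.3 and 96.2 in the C4-2B replicates and at 11.96 and 14.8 in the C4-2BENZR replicates. Both resistant libraries lay far below both sensitive ones. The level fell 6.98-fold, from 93.3 ± 4.18 to 13.4 ± 1.99 (SD, n = 2 libraries per group), a log2 difference of −2.72 with a standard error of 0.10 (limma adjusted p = 2.14e-12). CAMK2N1 was at 186 and 188 in C4-2B and at 35.3 and 35.2 in C4-2BENZR. Its replicates were nearly equal within each group, and the level fell 5.30-fold (log2 difference −2.37, standard error 0.06, limma adjusted p = 3.00e-14).

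The other kinases and enzymes moved less. PRKD1, which acts downstream of diacylglycerol and protein kinase C, was at 176 and 175 in C4-2B and at 98.9 and 97.0 in C4-2BENZR, 1.79-fold lower (limma adjusted p = 2.96e-09). CDK8 was at 28.2 and 29.3 against 20.0 and 19.9, 1.44-fold lower (limma adjusted p = 0.000664). FOLH1 was at 697 and 725 against 545 and 592, 1.25-fold lower (limma adjusted p = 5.78e-05). FOLH1 has a near-identical copy, FOLH1B, with which it may share reads. FOLH1B was at 1.39 and 2.07 in C4-2B and at 1.04 and 1.33 in C4-2BENZR, and with both summed the log2 difference of FOLH1 was −0.32, as it was alone. BCHE was low throughout, at 2.01 and 1.81 in C4-2B and at 0.614 and 0.984 in C4-2BENZR, 2.39-fold lower on 74 and 30 reads. It entered the fit only through the C4-2B libraries, where it is higher, so its p-value is not given as support. The BCHE call was lost without C4-2BENZR replicate 1 (log2 difference −0.55), without C4-2B replicate 1 (−0.65) and with DESeq2 (adjusted p = 0.0820).

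The 2 receptor genes went the other way. OPRK1 had no read in either C4-2B library and was at 2.22 and 2.08 in C4-2BENZR, on 83 reads in all. Against a floor of 3 reads per library it was at least 13.9-fold higher, at a low level in both resistant libraries. It entered the fit only through those libraries, so its p-value is not given as support. ACKR3 was at 6.19 and 4.97 in C4-2B and at 16.8 and 14.5 in C4-2BENZR, 2.81-fold higher (log2 difference 1.34, standard error 0.16, limma adjusted p = 2.57e-06).

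Neighbouring genes were compared as a description of position, taking the 5 nearest genes with a value on either side in RefSeq order. In C4-2B the median log2 difference of the 10 neighbours lay between −0.18 and 0.03 for 7 of the 8 genes. For CDK8 it was −0.34, with 7 of 10 neighbours lower, beside −0.51 for CDK8 itself. The neighbours of CDK8 were lower as a group in CWR-R1ENZR (median −0.43) and in the library labelled VCaPENZR (median −0.49) as well, where CDK8 itself was not. Those of DDC were lower in CWR-R1ENZR (median −0.90, 8 of 10 lower) and in the library labelled VCaPENZR (median −0.64, 7 of 10), and those of OPRK1 in the latter (median −0.82, 8 of 10), as were these genes themselves. In the same library the neighbours of CAMK2N1 were higher (median 1.11, 3 of 10 lower), while CAMK2N1 itself was lower. Medians there were 0.11 for ACKR3, 0.13 for FOLH1 and 0.29 for PRKD1, genes that were themselves lower. For BCHE, which was higher there, the median was 0.23. In CWR-R1ENZR the medians of CAMK2N1, BCHE, FOLH1 and PRKD1 lay between −0.15 and 0.35. Whether copy number moved with these values was not tested.

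**Figure D2:**
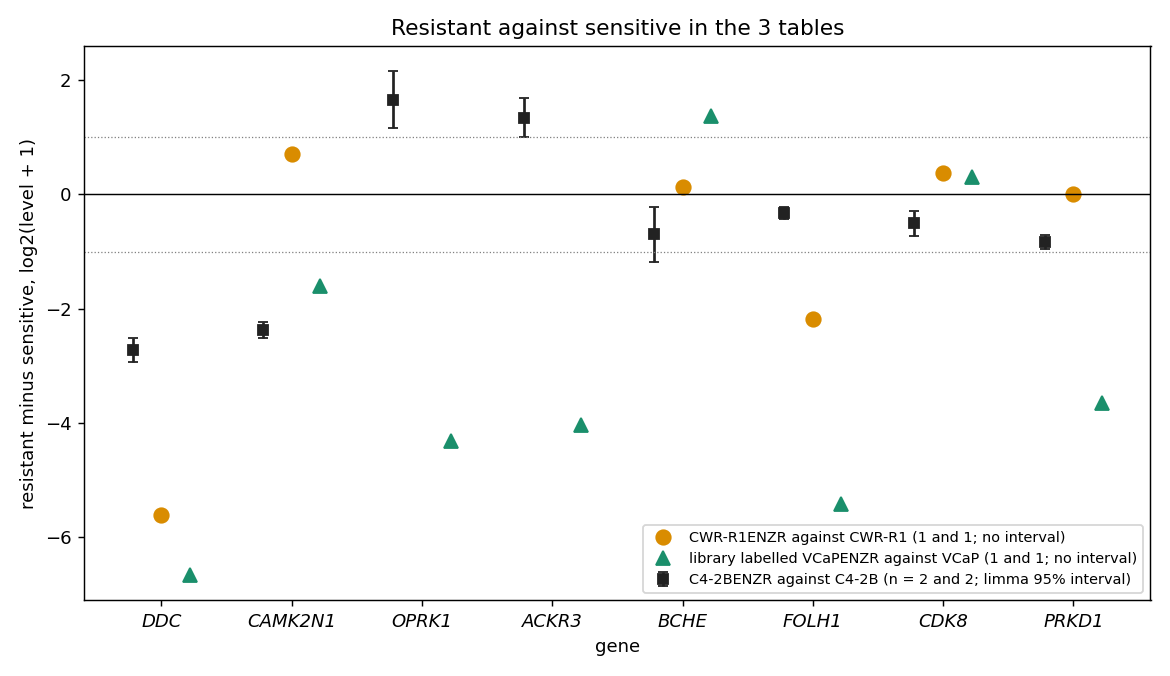
Resistant minus sensitive difference in log2(level + 1) for each gene in the 3 tables (squares, C4-2B with limma 95% intervals; circles, CWR-R1; triangles, VCaP; dotted lines at 2-fold). DDC and FOLH1 lie below 0 in every table, and OPRK1 and ACKR3 lie above 0 in C4-2B and below −4 in VCaP.

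CWR-R1ENZR against CWR-R1 rests on 1 library per group. No replicate checks these differences, no p-value is given, and the 95% intervals (exact Clopper-Pearson) cover counting error only. DDC was at 47.6 (706 reads) in CWR-R1 and had no read in CWR-R1ENZR, at least 237-fold lower against a floor of 3 reads. FOLH1 went from 177 to 38.3, 4.62-fold lower in CWR-R1ENZR (interval 4.22 to 5.06). With FOLH1B summed it was 4.67-fold lower. These 2 of 6 listed genes were at least 2-fold lower and 0 were at least 2-fold higher, against 10.3% and 9.79% of the 12462 genes compared (20.1% in either direction).

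The remaining 4 genes differed by less than 2-fold in this line. CAMK2N1 was at 38.2 and 62.9, 1.65-fold higher in CWR-R1ENZR (1.48 to 1.83), which is opposite to its fall in C4-2B. CDK8 was at 16.3 and 21.6, 1.32-fold higher (1.12 to 1.57). BCHE, at 20.2 and 22.0, and PRKD1, at 7.76 and 7.77, had intervals that included no change (0.932 to 1.28 and 0.767 to 1.31).

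In the library labelled VCaPENZR against VCaP, again 1 library each, 6 of the 8 genes were at least 2-fold lower, 1 was at least 2-fold higher and 1 was neither. Over the 12502 genes compared, 22.0% were at least 2-fold lower and 21.1% higher, 43.1% in all. DDC was at 106 (1864 reads) in VCaP and at 1 read in the library labelled VCaPENZR, a ratio of 1782 with a counting interval of 319 to 70431. OPRK1 went from 20.0 (351 reads) to 1 read (ratio 336, interval 59.8 to 13293) and ACKR3 from 16.4 (288 reads) to 1 read (ratio 275, interval 49.0 to 10914). FOLH1 was at 1184 in VCaP, its highest level in any library, and 44.2-fold lower at 26.8 (interval 40.3 to 48.6). PRKD1 was 16.4-fold lower, from 49.9 to 3.04 (12.4 to 22.2), and CAMK2N1 3.06-fold lower, from 496 to 162 (2.93 to 3.20). BCHE alone was higher by 2-fold or more, from 17.6 to 47.5 (2.69-fold, 2.36 to 3.08), and CDK8 was at 11.8 and 14.7 (1.25-fold higher, 1.03 to 1.51).

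Set beside CWR-R1ENZR, the library labelled VCaPENZR was near it for DDC, FOLH1 and CDK8, and further from it for PRKD1, BCHE and CAMK2N1. DDC was at 0 and 0.0595, FOLH1 at 38.3 and 26.8, and CDK8 at 21.6 and 14.7. PRKD1 was at 7.77 and 3.04 in the same order, BCHE at 22.0 and 47.5, and CAMK2N1 at 62.9 and 162. These tables were normalized separately and the values are given side by side with no test. Since the ERG value goes against the label, a difference between these 2 VCaP libraries cannot be told apart from a difference between lines.

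Over the 3 lines, DDC and FOLH1 were the 2 of 6 genes in every table that were lower in each, a pattern shared by 14.4% of the 11208 genes compared in all 3. Both were also called in C4-2B and at least 2-fold lower in both other tables, as were 136 genes in all (1.21%). Without the VCaP table the same 2 genes were lower in both remaining tables (27.7% of 11667 genes were), and both met the call in C4-2B and the 2-fold limit in CWR-R1, as did 371 genes (3.18%). The mean log2 difference over the 3 tables was −4.99 for DDC (standard error 0.81), −2.64 for FOLH1 (0.93), −1.50 for PRKD1 (0.75) and −1.09 for CAMK2N1 (0.61). It was 0.27 for BCHE (0.53) and 0.06 for CDK8 (0.39). None of the 6 passed limma on the 3 differences (adjusted p = 0.831 for DDC), and 0 of 12868 genes did (0.00%). At an unadjusted p below 0.05 there were 2 of the 6, DDC (limma, 0.00120) and FOLH1 (limma, 0.0335), against 5.32% of all genes. Without the VCaP table the unadjusted p was 0.00157 for DDC and 0.0367 for FOLH1 (limma), against 5.83% of genes below 0.05, and again 0 genes passed after adjustment. That fit held only 2 differences, that of CWR-R1 without replicates, so its p-values lean on the spread of other genes. The means without the VCaP table were −4.16 for DDC, −1.25 for FOLH1, −0.83 for CAMK2N1 and −0.41 for PRKD1, and that of BCHE turned to −0.29. CDK8 turned to −0.06 without the VCaP table and to −0.10 without the CWR-R1 table.

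The order of levels was gene-specific. The counting intervals, taken over both replicates where there were 2, give which neighbours in an order overlapped. They cover counting error only, while replicates varied by more than that and the tables were normalized separately, so intervals that do not overlap are a description and show no difference between lines. DDC ran from VCaP (106) through C4-2B (93.3), CWR-R1 (47.6) and C4-2BENZR (13.4) to the library labelled VCaPENZR (1 read) and CWR-R1ENZR (0 reads), which overlapped. FOLH1 ran from VCaP (1184) through C4-2B (711), C4-2BENZR (569), CWR-R1 (177) and CWR-R1ENZR (38.3) to the library labelled VCaPENZR (26.8), with no overlap between neighbours. CAMK2N1 was highest in VCaP (496), then in C4-2B (187), with CWR-R1 (38.2) and C4-2BENZR (35.2) lowest and overlapping. PRKD1 was highest in C4-2B (175) and C4-2BENZR (97.97), and CWR-R1 and CWR-R1ENZR overlapped at 7.76 and 7.77.

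BCHE differed from PRKD1 in that all 4 CWR-R1 and VCaP libraries (17.6 to 47.5) lay above C4-2B and C4-2BENZR (1.91 and 0.799). CWR-R1ENZR, CWR-R1 and VCaP overlapped in sequence, and so did C4-2B and C4-2BENZR. ACKR3 in VCaP (16.4) overlapped C4-2BENZR (15.6), above C4-2B (5.58). OPRK1 in VCaP (20.0) was above C4-2BENZR (2.15), and the 1 read of the library labelled VCaPENZR overlapped the 0 of C4-2B. CDK8 spanned only 11.8 to 28.8 over the groups, and every pair of neighbours overlapped except C4-2B above CWR-R1ENZR. On the log2(level + 1) scale the range over the 8 libraries was 6.74 for DDC and 1.25 for CDK8, against a median of 1.56 over the 12868 shared genes, and it was 3.78 to 5.45 for CAMK2N1, BCHE, FOLH1 and PRKD1.

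For each of the 6 genes in all tables, the 2 genes with the most similar profile were found by the root mean square difference of centred log2(level + 1) over the 8 libraries. The libraries share lines, and tables were scaled separately, so this likeness is a description. DDC was most like LCP1, which bundles actin (0.63), and IQGAP2, a scaffold of the actin cytoskeleton (0.73). LCP1 was at 281 and 286 in C4-2B, 56.6 and 65.6 in C4-2BENZR, 90.4 in CWR-R1 and 916 in VCaP, against 3.08 in CWR-R1ENZR and 1.43 in the library labelled VCaPENZR. CAMK2N1 was most like the phosphatase gene PTPN21 (0.49) and IGF1R, the receptor of insulin-like growth factor 1 (0.53). IGF1R was at 200 and 195 in C4-2B, 36.0 and 29.0 in C4-2BENZR, and 561 in VCaP.

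FOLH1 was nearest to HERC6, a ubiquitin ligase gene of the interferon response (0.42), and to ADAMTS1, a secreted metalloprotease (0.44). ADAMTS1 was at 388 in VCaP and 5.12 in the library labelled VCaPENZR. PRKD1 was nearest to ARMCX6 (0.35) and GLYATL1 (0.38), BCHE to RASA4CP, a pseudogene whose reads may be shared with its parent genes (0.38), and GSTO2 (0.40). CDK8 was nearest to ATP13A1 (0.09) and SRF (0.10), but 4483 genes lay within 0.5 of its flat profile, against 0 for DDC and 1 for CAMK2N1.

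**Figure D3:**
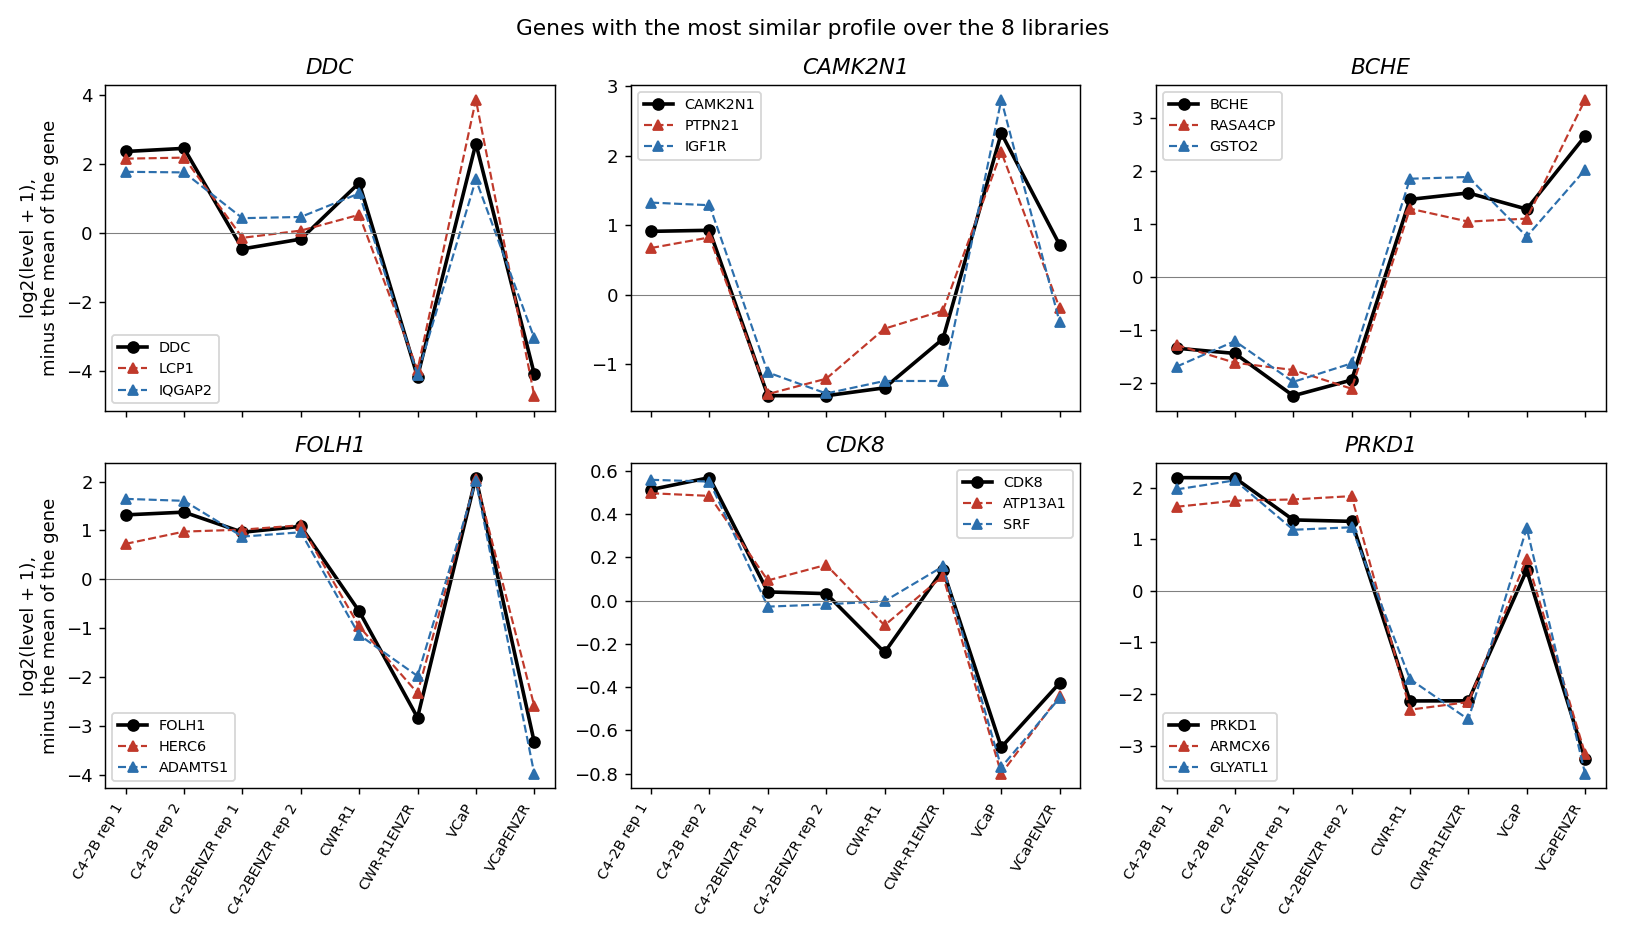
Centred log2(level + 1) of 6 genes (black) and of the 2 genes most like each (red and blue, dashed) over the 8 libraries. Each point is 1 library; DDC, LCP1 and IQGAP2 share their lowest values in CWR-R1ENZR and the library labelled VCaPENZR, and the CDK8 axis covers a much smaller range.

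Markers of other tissues were set beside DDC, which is also expressed in liver, gut and neuroendocrine cells. In CWR-R1, all 7 listed liver and gut markers were at a level of at least 1 and their summed level was 452, against 17.2 in CWR-R1ENZR, where CDH17 was at 0. Among them, ALB, which encodes albumin, was at 191 in CWR-R1 and at 1 read in CWR-R1ENZR. The sum was 92.9 in VCaP and 19.7 in the library labelled VCaPENZR, where A1CF and CDH17 were at 0 while VIL1 (11.4 against 0.114) and HLF (6.13 against 0.285) were higher. In C4-2B, where 4 of the 10 were listed, it was 42.7 to 46.9, against an overlapping 40.9 to 47.8 in C4-2BENZR. Of 7 neuroendocrine markers, 4 were listed in C4-2B, with a sum of 5.31 to 5.59 against 33.8 to 34.0 in C4-2BENZR. There INSM1 was at 0 in all 4 libraries, while ENO2 was at 4.33 and 3.99 in C4-2B and at 33.5 and 32.3 in C4-2BENZR. The neuroendocrine sum was 343 in CWR-R1 and 249 in CWR-R1ENZR, and 266 in VCaP and 1039 in the library labelled VCaPENZR, where CHGA went from 69.3 to 0. ENO2 made up most of these sums except in VCaP, and other markers went the other way. In CWR-R1ENZR ENO2 was lower (215 against 335) while SYP was higher (31.8 against 7.49), and in the library labelled VCaPENZR ENO2 was at 1039 against 14.5 while CHGB, SYP and INSM1 were lower (0.0595 against 109, 0.834 against 57.4 and 0 against 15.5). The part of these markers in the DDC values was not tested. In bulk RNA, fewer cells with a transcript and less transcript per cell cannot be told apart.

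Other genes that androgen withdrawal or antiandrogens are reported to raise formed a list of 16. In C4-2B, 12 were listed, 11 passed the filter, 6 rose and 3 fell (limma, median log2 difference 0.32, against −0.00075 over all genes, of which 27.8% rose and 29.0% fell). In CWR-R1, 14 were compared, of which 1 was at least 2-fold higher and 8 lower (median −1.13, with 9.79% higher and 10.3% lower over all genes). In VCaP, 11 were compared, with 1 higher and 7 lower (median −1.84, with 21.1% higher and 22.0% lower over all genes). GRB10 and MET were the 2 that were lower by call in every table, as were 1.21% of all genes. GRB10, an adaptor that restrains insulin signalling, was at 245 against 474 in C4-2BENZR and C4-2B (limma adjusted p = 1.43e-10), at 14.3 in CWR-R1ENZR against 34.1 in CWR-R1, and at 22.2 in the library labelled VCaPENZR against 105 in VCaP. GRB10 is also the gene next to DDC in RefSeq order. MET, the receptor of hepatocyte growth factor, was at 6.69 against 20.0 (limma adjusted p = 2.30e-07), at 2.81 against 14.4 in CWR-R1, and at 2.80 in the library labelled VCaPENZR against 7.69 in VCaP. Without the VCaP table GRB10 and MET remained the 2 lower by call.

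Genes that androgen activates formed a list of 26. In C4-2B, 25 passed the filter, 11 rose and 10 fell (limma, median 0.09, beside 27.8% and 29.0% of all genes). In CWR-R1, 20 were compared, 5 of them higher and 7 lower by 2-fold or more (median −0.33, beside 9.79% and 10.3% of all genes). In VCaP, 24 were compared, with 3 higher and 14 lower (median −1.66, beside 21.1% and 22.0% of all genes). Among them PMEPA1, STEAP2, KLK4 and ELL2 were lower by call in every table, against 1.21% of all genes. PMEPA1, an inhibitor of TGF-beta signalling, was at 89.1 against 195 in C4-2BENZR and C4-2B (limma adjusted p = 1.87e-10), at 10.9 against 147 in CWR-R1, and at 1.25 in the library labelled VCaPENZR against 1943 in VCaP. KLK4, a kallikrein protease, was at 88.5 against 103 (limma adjusted p = 0.00898), at 5.16 against 154 in CWR-R1, and at 13.9 in the library labelled VCaPENZR against 276 in VCaP. Without the VCaP table these 4 remained the genes lower by call. No gene of either list was higher by call in every table (0 in each). The share of all genes that were higher by call in every table was not computed, so these counts are a description.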

How the data were processed

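Polyadenylated RNA of 8 libraries was sequenced as 150-base paired ends, per the labels' protocols. The submitters' processing notes name hg19 as the build. Aligner and counting program were not given in the sources used here. For each line the authors deposited 1 table, holding a signal value per library, a signed fold score, p-values and false discovery rates; the last 3 were not used. The deposited signal behaves as read counts over a scaled library size, since within 0.02 reads 100% of values in every library were whole multiples of 1 read, and reads were recovered by dividing by that value. Intervals and floors cover counting error only. Replicates differed by more than counting error (chi-square per gene of 4.07 for C4-2BENZR, 5.67 for C4-2B, over genes with at least 50 reads).

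For C4-2B, genes that reached a value of 1 in 2 or more libraries were fitted on log2(value + 1) by limma 3.58.1 (trend, two-sided, Benjamini-Hochberg, threshold 0.05). In CWR-R1 and VCaP, genes that reached a value of 5 in 1 of the 2 libraries were compared by ratio and counted at 2-fold. Across lines, limma was fitted to the 3 log2 differences. edgeR 4.0.16 and DESeq2 1.42.0 on the recovered reads, other scalings, filters and pseudocounts were alternatives. The design had allowed for raw counts, but the values are scaled, so limma was the main test. The 3 tables were normalized separately. The alternatives of summing FOLH1 with FOLH1B, and counts across lines without the VCaP table, were added after seeing the data. The limma fit was tested on simulated data as a check of the code only. Far fewer genes changed there than were called in C4-2B. The genes and lists were chosen with earlier results of these data known. Named genes are the 8 genes, the 2 most similar genes for each gene in all tables, and up to 4 per list that went 1 way in every table. Replicate numbers share no stated source, so the fit had no block. Promoter sequences exist in the RefSeq table used here for DDC, BCHE, CDK8 and PRKD1. Marker lists also covered blood, fibroblast and basal genes. In these lists summed levels were 0 to 2.84 for blood and 0 to 14.7 for basal genes, and 12.3 to 551 for fibroblast genes. The highest fibroblast sum, in CWR-R1, was mostly PDGFRA (517). PDGFRA was listed in the CWR-R1 table only and was at 0.67 in CWR-R1ENZR. LUM was lower there as well (2.81 against 11.6), but COL1A1 was higher (63.6 against 22.2). COL1A1 was also higher in C4-2BENZR (53.4 and 48.2) than in C4-2B (15.1 and 12.3), and in the library labelled VCaPENZR (17.0) than in VCaP (8.25).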

Additional observations from a re-analysis of the deposited data

Results flagged for a closer look

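Of the 8 genes, 5 moved one way in every C4-2BENZR library and the opposite way in another resistant library. These differences between lines were not tested, since the other lines have 1 library per group, and replicates vary by more than the counting error of those libraries. For CDK8 in the library labelled VCaPENZR that error alone reached from 1.03 to 1.51-fold, and for BCHE the C4-2B and C4-2BENZR counting intervals overlapped. CAMK2N1 fell in C4-2BENZR and was higher by 0.70 (log2 of level + 1) in CWR-R1ENZR. OPRK1 and ACKR3 rose in C4-2BENZR and differed by −4.31 and −4.04 in the library labelled VCaPENZR. BCHE fell in C4-2BENZR and was higher by 1.38 in the library labelled VCaPENZR. CDK8 fell in C4-2BENZR and was higher by 0.38 in CWR-R1ENZR and by 0.30 in the library labelled VCaPENZR. The VCaP values among these carry the doubt about that library's label. The share of all genes that moved in opposite directions by the same rule was not computed, so 5 of 8 is a description. Over all genes, the C4-2B groups did not overlap for 77.4%. At least 2-fold differences were seen for 20.1% of genes in CWR-R1 and 43.1% in VCaP.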

How the results depend on the processing

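In C4-2B, 7 of the 8 genes kept their direction and call in every alternative that could test them, and BCHE lost its call in 3 fits, as given above, and at a threshold of 0.01. OPRK1 is among the 7 but entered only through the group where it is high. OPRK1 and BCHE were not tested when a value of 5 was required. Leaving out each library kept the direction of all 8 genes, with log2 differences of −2.86 to −2.58 for DDC and −0.85 to −0.55 for BCHE. In those fits 1 library stands alone in its group and is assumed to vary like the others. Calls over all genes also moved with the fit. With every library kept they ran from 6378 (DESeq2) to 8248 (replicate block), against 7547 in the main fit. The replicate block called all 8 genes. Over all genes the deviations of same-numbered replicates correlated at 0.0502. This correlation cannot exclude a source shared by same-numbered libraries that acts on some genes only. In VCaP, the list of other withdrawal-raised genes had 13 members at least 2-fold apart with no low-value filter, against 8, since that filter leaves out 5 listed genes. Over the 3 lines, BCHE reversed to −0.29 and CDK8 to −0.062 without the VCaP table, and CDK8 to −0.10 without the CWR-R1 table, where neither passed the test. Log2 differences of low genes shrink with the pseudocount: at 5 in place of 1 DDC in CWR-R1 was −3.40 (from −5.60), and in VCaP OPRK1 was −2.30 and ACKR3 −2.08 (−5.19 and −4.92 at 0.5). In C4-2B OPRK1 was 0.52 and BCHE −0.25 at 5. Depth limits OPRK1 and BCHE in C4-2B and all values of 0 or 1 read.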
